A study of Mus musculus with 6 samples.

Results

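The NF-κB subunits and the feedback genes of CD40 signaling were examined in induced germinal center B cells (iGBs) in which Prmt1 was targeted for deletion or left intact. The 10 genes, chosen by symbol among the 39017 genes of the count table, were the subunits Nfkb1, Nfkb2, Rel, Rela and Relb, the inhibitors Nfkbia, Nfkbie and Tnfaip3, and the adaptors Traf1 and Traf3. All 10 were found in the table and all passed the filter on low counts. iGBs were made from spleen B cells of C57BL6/J mice cultured for 3.5 days on 40LB feeder cells, a fibroblast line that presents CD40L and BAFF, with IL-4 at 5 ng/ml as the labels give it (the methods state a lower concentration). Control iGBs came from 3 Cg1-cre mice and Prmt1-null iGBs from 3 Cg1-cre Prmt1f/f mice, 2 females and 1 male of each genotype, with 1 library per mouse. Both groups carry the Cre, which is driven from the Cγ1 locus and so acts after B cell activation, and the age of the mice is not given in the sources used here. Feeder cells had been depleted before total RNA was extracted, and rRNA-depleted libraries were sequenced.

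NF-κB is a family of dimeric transcription factors that inhibitory IκB proteins hold in the cytoplasm of resting cells. CD40, the receptor for CD40L, recruits TRAF proteins and opens a fast route, in which IκB is degraded and dimers of Rel or Rela with the Nfkb1 product are released, and a slow route, in which the kinase encoded by Map3k14 builds up and the Nfkb2 precursor is processed to pair with Relb. Several of the genes that NF-κB induces encode its own inhibitors and subunits, and BAFF feeds the slow route in B cells through its receptor.

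Promoters are shown first because NF-κB binds a short κB element in DNA and several of these genes are known to be induced by it. In the RefSeq promoter table (GRCm38.p6), 8 of the 10 genes had an entry, and the 250 bases before each start were searched on both strands. The κB consensus was found for 5 of the 8, against 5.67% of the 27025 genes in the table. A looser form, G in the first 3 places, any base in the next 5 and C in the last 2, which includes every match to the consensus, was found for 7 of the 8, against 48.7% of all genes. The matches below are printed on the strand of the gene with up to 10 bases on either side, and capitals mark the κB match. The matches of Rel, Nfkbia and Tnfaip3 read as the motif on the opposite strand, so the printed letters are its reverse complement.
Nfkb2 (chr19:46304688-46304717, plus strand): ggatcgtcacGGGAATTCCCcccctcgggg
Nfkb2 (chr19:46304716-46304736, plus strand): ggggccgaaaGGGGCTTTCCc
Nfkb2, a later start (chr19:46305695-46305724, plus strand): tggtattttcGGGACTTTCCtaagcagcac
Rel (chr11:23771042-23771071, minus strand): cgtaagcagcGGGAAATCCCcccccctccc
Nfkbia (chr12:55492657-55492686, minus strand): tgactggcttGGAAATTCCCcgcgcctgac
Tnfaip3 (chr10:19015411-19015432, minus strand): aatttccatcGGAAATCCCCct
Traf3 (chr12:111166350-111166369, plus strand): ggcggcccgcGGGGATTTCC
The Rel promoter held a further match shifted by 1 base. A match is a run of letters and not a measured binding site, and Rela, Nfkbie and Traf1 had no consensus match in this window.

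Gene counts summed to between 45343250 and 62774232 per library, and each of the 10 genes had between 1314 and 12914 raw counts in every library. Values below are normalized counts, which are raw counts divided by a library scaling factor from edgeR's TMM method, and means carry the SD over n = 3 mice. Prmt1 (ENSMUSG00000052429, chromosome 7 of mm10, 44975989 to 44986568), the deleted gene, had 3941, 3901 and 4809 normalized counts in the Control libraries against 1734, 1469 and 1469 in the Prmt1-null ones, and fell by 1.44 on the log2 scale (adjusted p = 1.11e-05 with edgeR), so the libraries followed their labels. Prmt1 RNA was thus lowered but not absent in the Prmt1-null libraries. Across 18268 genes tested with edgeR's quasi-likelihood test, 218 had a Benjamini-Hochberg adjusted p under 0.05, which is 1.19% of them and this number lay between 31 and 350 when 1 library was left out. Of all genes tested, 19.9% had Control and Prmt1-null values that did not overlap, with 9.95% being higher and 9.92% lower in Prmt1-null iGBs. B cell markers summed to between 10920 and 12360 CPM, counts scaled to a common library total, in every library. The 16 fibroblast markers, which would mark feeder cells, summed to 33.7 to 37.6 CPM in Control and 36.9 to 45.4 CPM in Prmt1-null iGBs, with Postn at 0 throughout. Markers of T cells summed to 23.3 to 27.3 CPM in Control and 25.4 to 27.9 CPM in Prmt1-null iGBs, mostly from Lck.

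Differences of the 10 genes between Control and Prmt1-null iGBs were small. The genes were chosen with earlier results of these data known, so shares set beside those of all genes are a description and not a test. With edgeR's quasi-likelihood test, 0 of the 10 genes had an adjusted p under 0.05, where 1.19% of all genes did (0.591% higher, 0.602% lower), and 3 had an unadjusted p under 0.05, against 13.5% of all genes tested. DESeq2 called 2 of them, Nfkbie and Tnfaip3, where it called 5.19% of the 14018 genes to which it gave an adjusted p, and limma-voom called 0, where it called 1.37% of all genes. The estimate was above 0 for 8 of the 10, with a median log2 fold change of 0.11, where the median of all genes tested was −0.0008. For 5 of the 10 (Nfkb2, Rel, Nfkbie, Tnfaip3 and Traf1) every Prmt1-null library was higher than every Control library, against 9.95% of all genes, and no gene of the 10 was lower without overlap, against 9.92%. All genes tested include many with fewer counts than these 10, and the shares among genes of like level were not computed. The 95% intervals of the 10 genes ran from 0.831-fold to 1.34-fold. RNA of a library is a total over its cells, so a change in the share of cells that express a gene and a change of RNA per cell cannot be told apart.

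**Figure D1:**
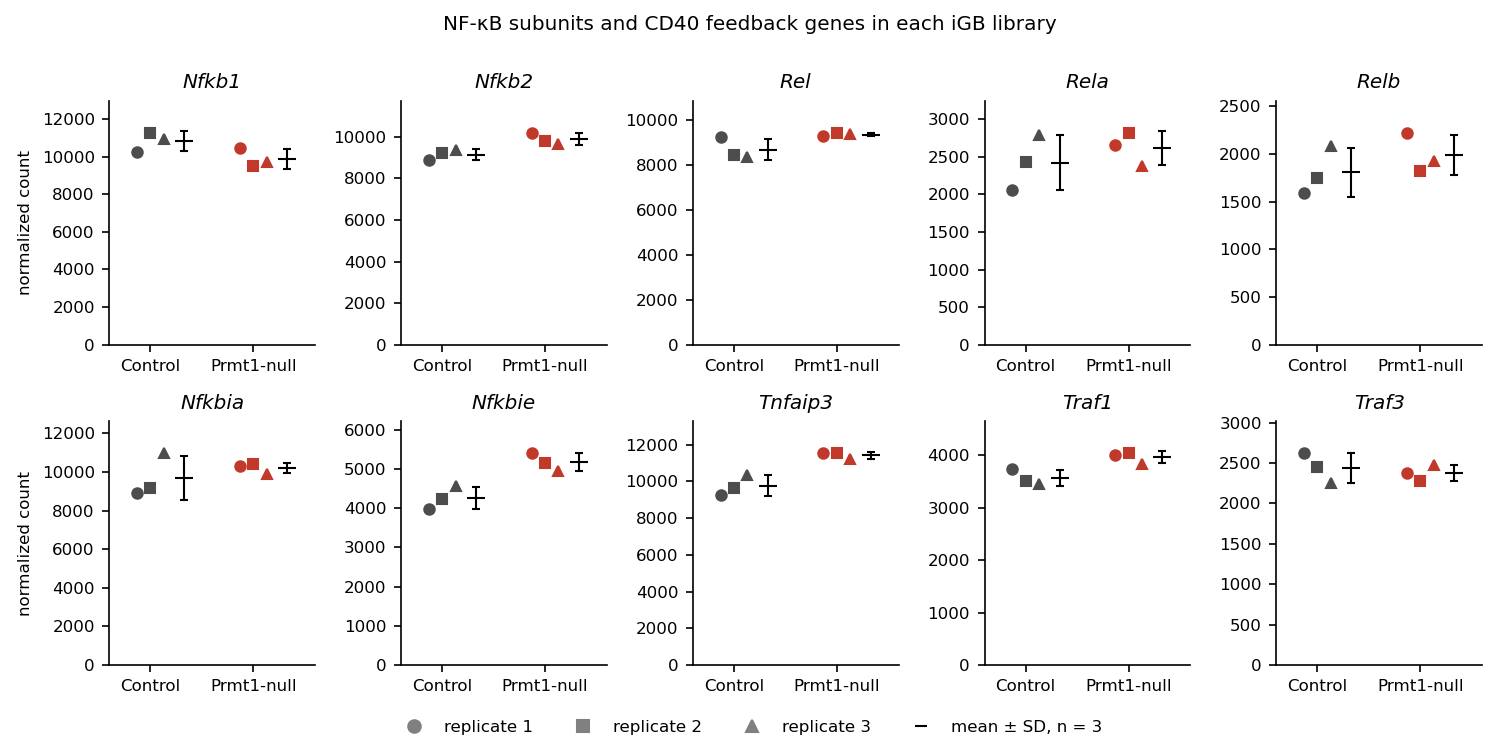
Normalized counts (linear axes from 0) of the 10 NF-κB and CD40 feedback genes in each of the 3 Control (gray) and 3 Prmt1-null (red) libraries (circles, squares and triangles are replicates 1, 2 and 3), with the mean and SD of each group beside the points. Nfkbie, Tnfaip3, Traf1, Nfkb2 and Rel show groups that do not overlap, whereas Nfkb1, Rela, Relb, Nfkbia and Traf3 overlap.

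Among the subunits, Nfkb1 (ENSMUSG00000028163, chromosome 3, 135584655 to 135691547), which encodes the p105 precursor of p50, was the only one with an estimate below 0. Its normalized counts were 10266, 11270 and 10964 in Control and 10485, 9486 and 9706 in Prmt1-null libraries, a log2 fold change of −0.13 (standard error, SE, 0.063, adjusted p = 0.391). The groups overlapped because Prmt1-null replicate 1 was above Control replicate 1. Nfkb2 (ENSMUSG00000025225, chromosome 19, 46304320 to 46312385), which encodes the p100 precursor of p52, had 8874, 9224 and 9345 normalized counts in the Control libraries against 10196, 9803 and 9648 in the Prmt1-null ones. All 3 Prmt1-null values were above all 3 Control values, but the difference was small (log2 fold change 0.11, SE 0.057, adjusted p = 0.424). Nfkb2 shares 830 exonic bases with genes on the opposite strand and the strand setting of the counting is not given in the sources used here, so part of its count is uncertain.

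Rel (ENSMUSG00000020275, chromosome 11, 23736847 to 23770970) encodes c-Rel, a transactivating subunit abundant in lymphocytes. It had 9239, 8426 and 8368 normalized counts in the Control libraries against 9262, 9423 and 9349 in the Prmt1-null ones, a log2 fold change of 0.11 (SE 0.06, adjusted p = 0.471). The groups were parted by a narrow margin, between Control replicate 1 and Prmt1-null replicate 1. Rela (ENSMUSG00000024927, chromosome 19, 5637483 to 5648130), the transactivating subunit p65 of most cells, had 2061, 2425 and 2785 normalized counts in the Control libraries against 2655, 2820 and 2377 in the Prmt1-null ones (log2 fold change 0.11, SE 0.102, adjusted p = 0.7). Relb (ENSMUSG00000002983, chromosome 7, 19606217 to 19629438), the partner of p52, had 1587, 1743 and 2085 normalized counts in the Control libraries against 2220, 1815 and 1922 in the Prmt1-null ones (log2 fold change 0.14, SE 0.109, adjusted p = 0.639). With 1 library left out, the log2 fold change lay between 0.0108 and 0.222 for Rela and between 0.0541 and 0.254 for Relb. The lowest values were those without Control replicate 1 for Rela and without Prmt1-null replicate 1 for Relb, and the highest of both were without Control replicate 3. Both genes overlapped between the groups, and Control replicate 1 was the lowest of all libraries for each. Adjusted p of the subunits come from the edgeR fit over all genes.

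The mixture of subunits was compared within each library, as the share of each in their summed level per kilobase of exon. Nfkb1 made up 16.7%, 17.6% and 16.5% of the sum in Control and 15.1%, 14.1% and 14.8% in Prmt1-null libraries. Its share was thus lower in all 3 Prmt1-null libraries, by 2.25 percentage points on means of 16.9% ± 0.586 and 14.7% ± 0.494 (SD, n = 3). Nfkb2 made up 37.9%, 37.9% and 37.0% in Control and 38.5%, 38.4% and 38.8% in Prmt1-null libraries, higher in all 3. For both, the two-sided exact permutation test gave p = 0.10, the smallest that 3 against 3 libraries allow, and 0.25 after adjustment over the 5 shares. The shares of Rel (21.9% ± 2.05 and 22.4% ± 0.808), Rela (14.8% ± 1.65 and 15.2% ± 1.13) and Relb (8.73% ± 0.902 and 9.13% ± 0.76) overlapped between Control and Prmt1-null libraries. Without scaling to exon length the differences were −3.61 percentage points for Nfkb1, 1.49 for Nfkb2 and 1.31 for Rel (0.46 with scaling), and those of Rela and Relb were nearly the same. The difference in the Nfkb1 share lay between −2.47 and −1.92 percentage points when 1 library was left out. That in the Rel share turned sign, from −0.34 without Control replicate 3 to 1.62 without Control replicate 1, as did that in the Rela share, from −0.42 without Control replicate 1 to 1.23 without Control replicate 3.

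**Figure D2:**
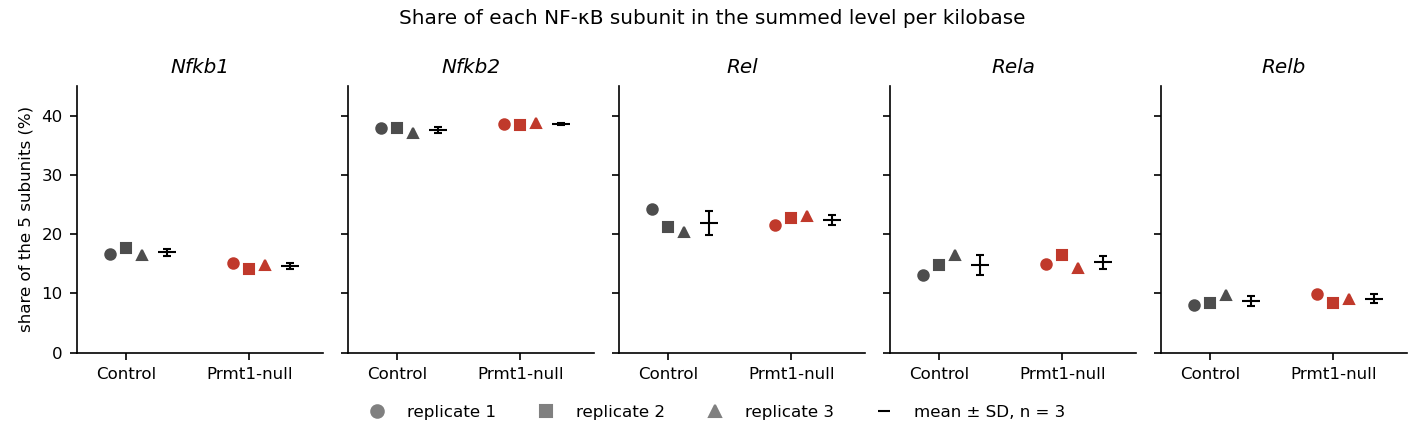
Share of each subunit (%) in the summed normalized count per kilobase of the 5 NF-κB subunits, in each of 3 Control (gray) and 3 Prmt1-null (red) libraries, with mean and SD. The Nfkb1 share is lower in all 3 Prmt1-null libraries (14.1% to 15.1%) than in all 3 Control libraries (16.5% to 17.6%), and the Nfkb2 share is higher in all 3.

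The smallest p of the 10 genes were those of the inhibitors Nfkbie and Tnfaip3. Nfkbie (ENSMUSG00000023947, chromosome 17, 45555703 to 45563169) encodes IκBε, which retains dimers with c-Rel and p65. Its normalized counts were 3986, 4231 and 4565 in Control and 5412, 5168 and 4947 in Prmt1-null libraries, so all 3 Prmt1-null libraries were above all 3 Control libraries. The log2 fold change was 0.28 (SE 0.066), or 1.21-fold with a 95% interval of 1.1 to 1.34, and the adjusted p of edgeR's test was 0.0571, which does not pass 0.05. It passed with DESeq2 (adjusted p = 0.00713), with sex as a covariate (0.0406), without a filter on low counts (0.00429) and without Control replicate 3 (log2 fold change 0.33, adjusted p = 0.0191), and over the other alternatives the adjusted p was at most 0.245. By unadjusted p, Nfkbie stood at place 265 among the 18268 genes.

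Tnfaip3 (ENSMUSG00000019850, chromosome 10, 19000910 to 19015657) encodes A20, a ubiquitin-editing enzyme that ends NF-κB signaling. It had 9286, 9664 and 10377 normalized counts in the Control libraries against 11551, 11528 and 11213 in the Prmt1-null ones. The groups did not overlap, with a log2 fold change of 0.23 (SE 0.06, 1.17-fold with a 95% interval of 1.07 to 1.28, adjusted p = 0.095). DESeq2 (adjusted p = 0.0118), the absence of a filter on low counts (0.029) and the absence of Control replicate 3 (log2 fold change 0.27, adjusted p = 0.0395) brought it past 0.05, with up to 0.318 elsewhere. Nfkbia (ENSMUSG00000021025, chromosome 12, 55489410 to 55492647) encodes IκBα, the classical inhibitor of the fast route. It had 8894, 9174 and 10979 normalized counts in the Control libraries against 10314, 10391 and 9901 in the Prmt1-null ones, and Control replicate 3 was the highest of all 6. Its log2 fold change was 0.08 (SE 0.076, adjusted p = 0.735), with a 95% interval of 0.941-fold to 1.18-fold, and the log2 fold change lay between 0.0214 without Control replicate 1 and 0.176 without Control replicate 3. Whether Nfkbia differed from Nfkbie or Tnfaip3 in its response was not tested.

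Traf1 (ENSMUSG00000026875, chromosome 2, 34941750 to 34961772), an NF-κB-induced adaptor of CD40 and related receptors, had 3743, 3513 and 3444 normalized counts in the Control libraries against 4009, 4043 and 3830 in the Prmt1-null ones. Its groups did not overlap, but it did not pass the edgeR test (log2 fold change 0.15, SE 0.062, adjusted p = 0.29). Traf3 (ENSMUSG00000021277, chromosome 12, 111166370 to 111267153), which keeps the kinase of the slow route low until CD40 or the BAFF receptor is engaged, had 2624, 2448 and 2249 normalized counts in the Control libraries against 2374, 2274 and 2478 in the Prmt1-null ones. The groups overlapped fully (log2 fold change −0.04, SE 0.078, adjusted p = 0.874), and the sign turned without Control replicate 1 (0.02).

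Libraries of a group also differed among themselves. Control replicate 1, from the male, had the lowest level of all 6 libraries for 6 of the 10 genes, and the SD was larger in Control than in Prmt1-null iGBs for 8 of the 10, where this held for 60% of all genes tested. Rel and Traf1 were the pair of genes whose patterns over the 6 libraries were most alike (root mean square difference 0.035 on the log2 scale, each gene centered on its mean), followed by Nfkbie and Tnfaip3 (0.0393). In Rel and Traf1 Control replicate 1 was the highest Control library, and in Nfkbie and Tnfaip3 it was the lowest. Among the genes with a mean normalized count over 100, those most like Nfkbie were Med28 (0.0259), Aup1 (0.0279) and Dpp3 (0.0293), of which Dpp3 had an adjusted p of 0.0387 and a log2 fold change of 0.30 with edgeR.

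Levels were compared between genes per kilobase of exon. Nfkbia was the highest, with 6014 ± 703 (SD) normalized counts per kilobase in Control and 6337 ± 163 in Prmt1-null iGBs. Nfkb2 (1996 ± 53.4 in Control), Nfkbie (1399 ± 95.3), Tnfaip3 (1353 ± 76.7) and Rel (1162 ± 65.2) followed, and Nfkbie and Tnfaip3 overlapped. Nfkb1 (898.2 ± 42.6) and Rela (789 ± 118) were next and overlapped, then Relb (464.6 ± 65.6) and Traf1 (404.4 ± 17.7), which also overlapped, and Traf3 was the lowest (332 ± 25.5). The order was the same in Prmt1-null iGBs except that Rela (852 ± 72.9) and Nfkb1 (820.2 ± 43.5) changed places, with overlapping values. Exon length was taken over all annotated isoforms, which lowers the values of genes with long isoforms that are little used.

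The rest of the pathway was read from 6 lists with 79 genes, of which 76 were tested. Of these 4 rose, 0 fell and 72 did not pass the test in edgeR, and all 4 belonged to the list of B cell genes that CD40 and NF-κB are known to induce. That is 5.26% that rose, where 0.591% of all genes tested did. The lists were chosen with earlier results of these data known, so the comparison with all genes is a description and not a test. At an unadjusted p under 0.05 there were 21 of the 76, against 13.5% of all genes. Of the 76, 14 were higher and 9 lower without overlap, against 9.95% and 9.92% of all genes. Over all 76, the log2 fold changes had a median of 0.04. With 1 library left out, 0 to 4 of the pathway genes passed edgeR's test, where 31 to 350 of all genes did.

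**Figure D3:**
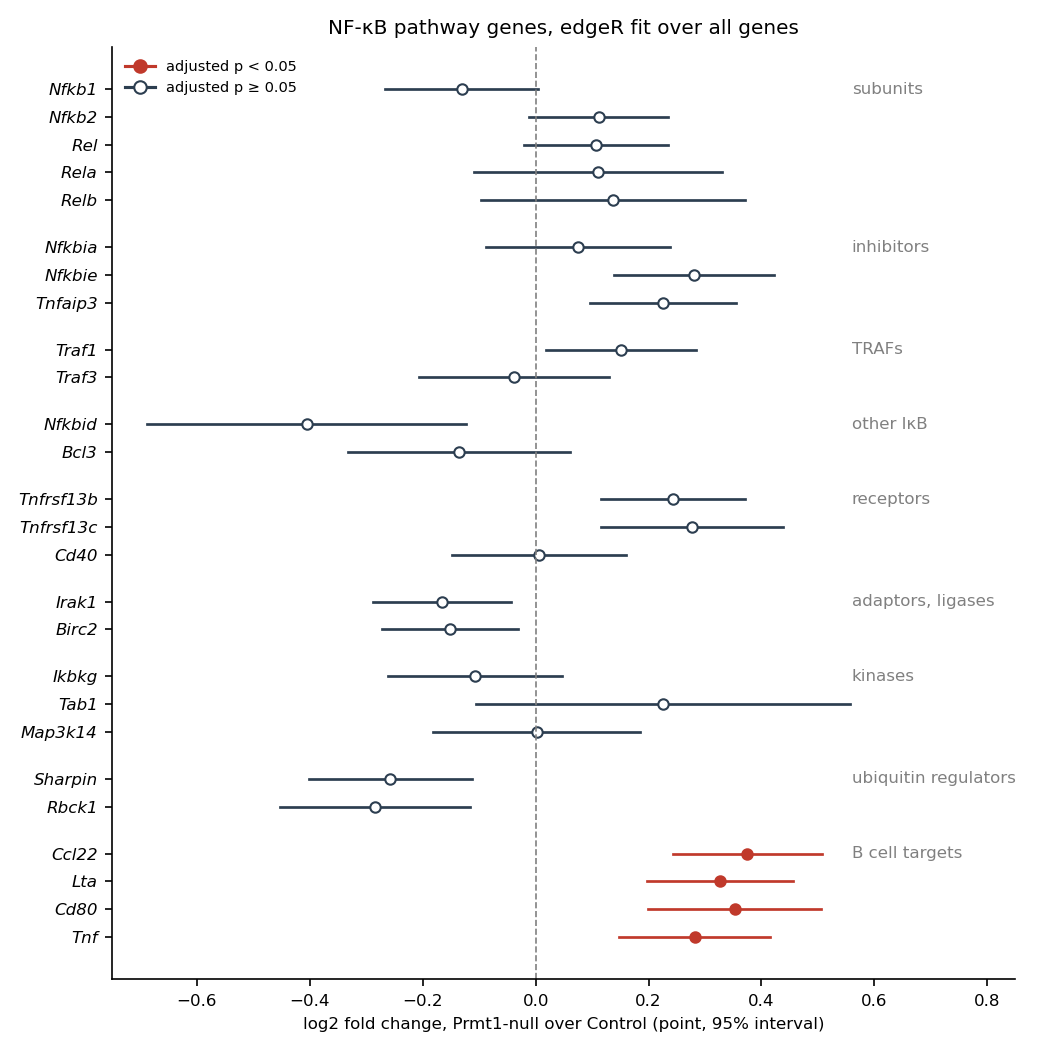
Log2 fold change of Prmt1-null over Control (points) with its 95% interval (lines) from the edgeR fit over all genes, for the 10 genes and the named genes of the other pathway lists, grouped by role. Filled red points have an adjusted p under 0.05; only Ccl22, Lta, Cd80 and Tnf do, and Cd40 and Map3k14 lie at 0.

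Cd40 itself (ENSMUSG00000017652, chromosome 2, 165055627 to 165072948) had 3374, 3704 and 3969 normalized counts in the Control libraries against 3846, 3497 and 3751 in the Prmt1-null ones, with a log2 fold change of 0.01 (95% interval −0.15 to 0.16, adjusted p = 0.982). Of the 9 receptors listed, 7 were tested and none passed edgeR's test, where 1.19% of all genes did, while 2 had an unadjusted p under 0.05, against 13.5% of all genes. These were the BAFF receptors Tnfrsf13c (47125 ± 4727 and 57095 ± 2780 normalized counts, log2 fold change 0.28, adjusted p = 0.0992) and Tnfrsf13b, which encodes TACI (11628 ± 448 and 13764 ± 440, log2 fold change 0.24, adjusted p = 0.068). Both were higher in all 3 Prmt1-null libraries, as were 9.95% of all genes tested. DESeq2 and limma-voom called both, with adjusted p of 0.00765 and 0.0418 for Tnfrsf13c and of 0.0033 and 0.0438 for Tnfrsf13b, and without Control replicate 1 edgeR called Tnfrsf13c (log2 fold change 0.37, adjusted p = 0.017). In edgeR without a filter on low counts both passed too (0.00363 and 0.0126), as did Tnfrsf13c with sex as a covariate (0.0277). Neither passed in the remaining alternatives, where the adjusted p reached 0.322 for Tnfrsf13c and 0.302 for Tnfrsf13b.

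The signal carriers between receptor and subunits stayed below the threshold. Of the 14 adaptors and ligases 0 passed edgeR's test and 3 had an unadjusted p under 0.05, with a median log2 fold change of −0.09. Irak1, Birc2 and Birc3 were lower in all 3 Prmt1-null libraries, and 0 of the 14 were higher without overlap, where 9.92% of all genes were lower, 9.95% higher and 13.5% had an unadjusted p under 0.05. The smallest p were those of Irak1, a kinase of the Toll-like receptor route (log2 fold change −0.17, adjusted p = 0.2), and Birc2, which encodes the ubiquitin ligase cIAP1 that works with TRAF2 and TRAF3 (−0.15, adjusted p = 0.234). Of the 10 kinases and their partners 0 passed and 0 had an unadjusted p under 0.05. Map3k14, the kinase of the slow route, had 2050 ± 158 normalized counts in the Control libraries against 2054 ± 120 in the Prmt1-null ones (log2 fold change 0.0016, 95% interval −0.18 to 0.18, adjusted p = 0.996). Ikbkg, which encodes the regulatory subunit NEMO (−0.11, adjusted p = 0.563; its exons overlap those of G6pdx on the opposite strand), and Tab1 (0.23, adjusted p = 0.572) had the smallest p of the list. The Tab1 estimate was 0.12 without Control replicate 1 and 0.38 without Control replicate 3.

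Sharpin and Rbck1, 2 of the 3 subunits of LUBAC, the ligase complex that builds linear ubiquitin chains for NF-κB signaling, had estimates below 0. Sharpin had 3738, 3751 and 4184 normalized counts in the Control libraries against 3135, 3252 and 3376 in the Prmt1-null ones (log2 fold change −0.26, SE 0.067, adjusted p = 0.0873). Rbck1, which encodes HOIL-1, had 2840, 2877 and 3342 in Control and 2557, 2527 and 2354 in Prmt1-null libraries (log2 fold change −0.28, SE 0.078, adjusted p = 0.104). Both were lower in all 3 Prmt1-null libraries, and DESeq2 called both, with adjusted p of 0.0198 and 0.0249, while edgeR called 0 of the 10 ubiquitin regulators and 3 had an unadjusted p under 0.05. Of these 10, 4 were lower without overlap (Itch and Cyld beside Sharpin and Rbck1) and 1, Otulin, was higher, against the same shares of all genes (9.92% and 9.95%, and 13.5% for an unadjusted p under 0.05). The ubiquitin ligase Itch had a log2 fold change of −0.19 (adjusted p = 0.126) and was also called by DESeq2. Rnf31, which encodes the catalytic subunit HOIP and shares exonic sequence with Irf9, had a log2 fold change of 0.05 (adjusted p = 0.859). Of the other 4 IκB proteins 0 passed and 1 had an unadjusted p under 0.05. That was Nfkbid, which encodes the nuclear protein IκBNS, with 1005 ± 140 normalized counts in the Control libraries against 759.6 ± 98 in the Prmt1-null ones (log2 fold change −0.41, 95% interval −0.69 to −0.12, adjusted p = 0.17). It passed without a filter on low counts (adjusted p = 0.0473) and was at 0.051 with DESeq2, and over the other alternatives the adjusted p was at most 0.525. Bcl3, another nuclear IκB protein, had a log2 fold change of −0.14 (adjusted p = 0.566), which lay between −0.22 without Control replicate 1 and −0.0213 without Control replicate 3.

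The target genes gave the clearest differences of the pathway. Of the 32 listed, 31 were tested, 4 rose, 0 fell and 27 did not pass, so 12.9% rose where 0.591% of all genes tested did. This list, too, was chosen with earlier results of these data known, and whether its share exceeds that of all genes was not tested. The estimate was above 0 for 27 of the 31, the median log2 fold change was 0.14, and 11 of the 31 were higher without overlap and 0 lower, against 9.95% and 9.92% of all genes tested. Ccl22 (ENSMUSG00000031779, chromosome 8, 94745590 to 94751699), a chemokine that draws CCR4-bearing T cells, had 33289, 35518 and 32374 normalized counts in the Control libraries against 43629, 42921 and 44653 in the Prmt1-null ones. The groups stood far apart, with a log2 fold change of 0.37 (SE 0.062, 1.3-fold, adjusted p = 0.0104), the smallest p of the pathway. It kept an adjusted p under 0.05 in edgeR's fits without any 1 library except Prmt1-null replicate 1 (0.0614) and Prmt1-null replicate 2 (0.0675).

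Lta (ENSMUSG00000024402, chromosome 17, 35203165 to 35205351) and Tnf (ENSMUSG00000024401, chromosome 17, 35199381 to 35202007) encode the cytokines lymphotoxin α and TNF and lie next to each other, 1157 bases apart. Lta had 4154, 4077 and 3855 normalized counts in the Control libraries against 5263, 4894 and 4999 in the Prmt1-null ones, a log2 fold change of 0.33 (SE 0.06, adjusted p = 0.0214). Tnf had 2932, 2858 and 2950 in Control and 3668, 3475 and 3482 in Prmt1-null libraries, a log2 fold change of 0.28 (SE 0.062, adjusted p = 0.0456). Both were tight within the groups and did not overlap between them. Their neighbor Ltb, which encodes lymphotoxin β and whose end lies 3060 bases from Tnf, was higher in all 3 Prmt1-null libraries too but had a log2 fold change of 0.14 (adjusted p = 0.303). Lta lost its call in edgeR's fits without Control replicate 2 (0.0922), Prmt1-null replicate 1 (0.115), Prmt1-null replicate 2 (0.079) and Prmt1-null replicate 3 (0.0809). Among the edgeR fits that left out 1 library, Tnf kept its call only without Control replicate 3 (0.0453), with 0.0727 without Control replicate 1, 0.177 without Control replicate 2, and 0.194, 0.172 and 0.14 without Prmt1-null replicates 1, 2 and 3, and over the other alternatives its adjusted p ran from 0.00388 with DESeq2 to 0.0821, with 0.0515 for limma-voom.

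Cd80, a costimulatory ligand of CD28, had 2884, 2933 and 2646 normalized counts in the Control libraries against 3768, 3703 and 3335 in the Prmt1-null ones, the fourth target that rose (log2 fold change 0.35, adjusted p = 0.033 with edgeR). Its call was lost without Control replicate 1 (0.0542), Control replicate 2 (0.096) and Prmt1-null replicates 1, 2 and 3 (0.165, 0.175 and 0.0561), and was kept without Control replicate 3 (0.0494). The related Cd86 did not follow (log2 fold change −0.14, adjusted p = 0.469), nor was the adhesion molecule Icam1 past the test (0.14, adjusted p = 0.509). Bcl2a1a, Bcl2a1b and Bcl2a1d, near-identical copies of a survival gene among which reads can be split, had log2 fold changes of −0.04, 0.12 and 0.21, none with an adjusted p under 0.05. None of the promoters of Ccl22, Lta, Tnf and Cd80 held the κB consensus in the 250 bases searched, where 5.67% of all genes in the promoter table did. All 4 held the looser form, which was found for 48.7% of all genes.

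**Figure D4:**
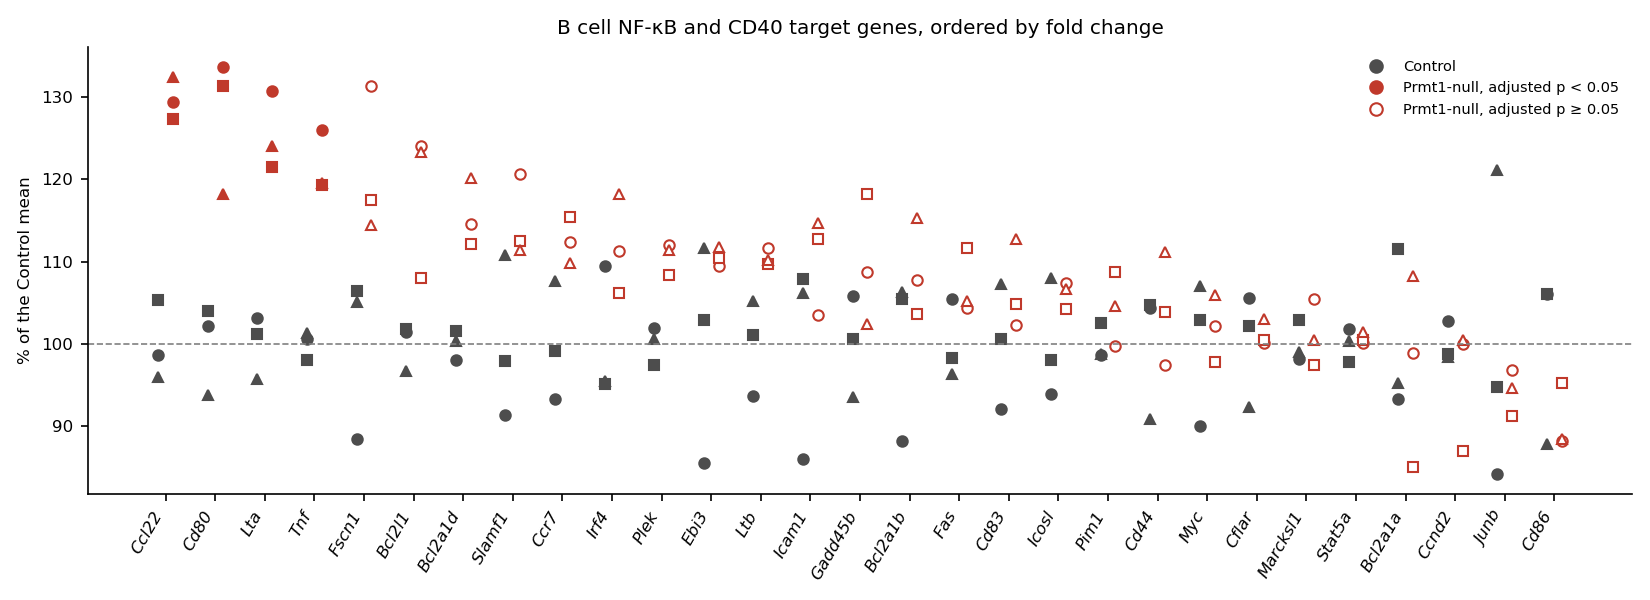
Normalized counts of the 29 B cell target genes with a mean over 100, as % of the Control mean (axis not from 0), in each Control (gray) and Prmt1-null (red) library; circles, squares and triangles are replicates 1, 2 and 3, and filled red marks an adjusted p under 0.05. For Ccl22, Cd80, Lta and Tnf every Prmt1-null library lies above every Control library, and the lowest Control library of any gene is at 84.2%.

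Markers of other cell types were set beside these values. Plasma cell markers summed to 709.5 to 764.9 CPM in Control and 793.5 to 868.1 CPM in Prmt1-null iGBs, without overlap, with 0 of the 5 tested past edgeR's test (Slamf7, adjusted p = 0.0506, and Xbp1, 0.0571, had unadjusted p under 0.05). Myeloid markers summed to 8.98 to 14.9 CPM in Control and 15.8 to 17.3 CPM in Prmt1-null iGBs. Adgre1, listed in the table as Emr1, was the 1 of 5 tested that rose (350.6 ± 51.8 and 582 ± 64.2 normalized counts, adjusted p = 0.0319 with edgeR). The other 4 myeloid markers tested did not pass, with Prmt1-null means above the Control means for Csf1r (101.8 and 81.1 normalized counts) and Itgam (145.5 and 134.9) and below them for Lyz2 (22.2 and 36.8) and Mpo (65.0 and 74.9), so most of the difference in the sum was that of Adgre1. Of the 14 fibroblast markers tested 0 passed, 3 had an unadjusted p under 0.05 and 12 had an estimate above 0, among them Col1a1 (353.5 ± 34.9 and 480.7 ± 58.5 normalized counts, adjusted p = 0.173). Of all genes tested, 1.19% passed edgeR's test, 13.5% had an unadjusted p under 0.05 and 49.9% had an estimate above 0. The part of these cells in the values of Ccl22, Lta, Tnf, Cd80, Nfkbie and Tnfaip3 was not tested.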

How the data were processed

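RNA-seq of iGBs from 3 Control and 3 Prmt1-null mice was analyzed. The authors cleaned the reads (Trimmomatic 0.32), mapped them to mm10 (STAR 2.3.0e) and used featureCounts 1.4.4 to count primary alignments with up to 2 mapping positions in exons of Ensembl genes. The deposited values are these raw counts per gene, neither normalized nor filtered. Total counts were 45343250 to 62774232 per library, and 3 counts, the smallest number taken as detected, correspond to 0.0478 to 0.0662 CPM (counting error only, since reads carry no molecular identifiers).

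Counts were tested in R 4.3.3 with edgeR 4.0.16. The 398 chromosome Y genes were left out, as in the study's methods, filterByExpr (minimum count 10) and TMM were applied, and the quasi-likelihood test was run on 18268 genes with Benjamini-Hochberg adjustment, genotype being the only term. Standard errors and 95% intervals were derived from the F statistic. The alternatives were DESeq2 1.42.0, limma-voom (limma 3.58.1), sex as a covariate, the replicate number as a block, the size factors of DESeq2 used in edgeR, all genes without a filter on counts, chromosome Y genes kept, and each library left out. Shares were compared with scipy 1.17.1. Gene positions and exon lengths came from GENCODE M21 (37693 genes matched by ID, 803 by symbol, 521 not). The fits were tested on simulated counts.

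The members and lists were chosen with earlier results of these data known. Named are the 10 genes, Prmt1, Cd40, Map3k14, in each list the genes with an adjusted p under 0.05 or else the 2 with the smallest p, and the 3 genes most like Nfkbie. Rnf31, Itch, Cyld, Otulin, Birc3, Ltb, Cd86, Icam1, the Bcl2a1 copies, Tnfrsf11a and the single marker genes were added with their values in view.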

Additional observations from a re-analysis of the deposited data

How the results depend on the processing

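The count of genes with an adjusted p under 0.05 rose from 218 to 727 with DESeq2 and to 710 without a filter on low counts, and lay between 31 and 350 with 1 library left out (128, 60 and 350 without Control replicates 1, 2 and 3, and 51, 31 and 77 without Prmt1-null replicates 1, 2 and 3). Of the 10 NF-κB and CD40 feedback genes, 0 passed in the reported fit, 2 with DESeq2, 2 without a filter, 1 with sex as a covariate, and 0 to 2 with 1 library left out. Of the other pathway genes, 4 passed in the reported fit, 10 with DESeq2, 11 without a filter and 0 to 4 with 1 library left out. The cause of these changes was not tested. The log2 fold change of Traf3 lay between −0.0932 and 0.0191, that of Cd40 between −0.0493 and 0.0634 and that of Map3k14 between −0.0572 and 0.0349 with 1 library left out, so their signs are not fixed, and that of Map3k14 was −0.0036 with limma-voom. Prmt1 passed in every fit that left out 1 library, with log2 fold changes between −1.52 and −1.33. Without length scaling the Nfkb1 share differed by −3.61 percentage points. Same-numbered libraries come from different mice and did not deviate together (correlations of deviations −0.07, 0.05 and −0.08 across genes for numbers 1, 2 and 3). With the replicate number as a block 152 genes passed, with 0 of the 10 and 3 other pathway genes among them. The block ended the call of Tnf (adjusted p = 0.0821), as did sex as a covariate (0.0502).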

Other observations

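Tnfrsf11a, which encodes the NF-κB-activating receptor RANK, was removed by the filter on low counts. It had 0 raw counts in each of the 3 Control libraries and 25, 14 and 5 in Prmt1-null replicates 1, 2 and 3. In edgeR's fit without the filter it had an adjusted p of 0.0212. It was picked out after its values had been seen, and 3 counts is the smallest number taken as detected in a library.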
